A study of Homo sapiens with 19 samples.

Results

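The SOX genes other than SOX10 were followed through RNA-seq of melanoma cells and melanocytes after silencing of BRG1 or MITF. The 9 genes SOX2, SOX4, SOX5, SOX6, SOX8, SOX9, SOX11, SOX13 and SOX18 were taken as a named list and matched by symbol to Ensembl identifiers. They are 9 of the 44717 gene identifiers listed for any sample and 9 of 19 SOX genes looked up, of which SOX10 served as the counterpart and the other 9 as the rest of the family. All 9 genes were listed for every one of the 19 samples.

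501Mel cells, an established human melanoma line grown in medium with serum, were infected with a lentivirus (pLKO vector) carrying an shRNA against BRG1 (shBRG1, 3 replicates) or a scramble shRNA (shSCR1, 3 replicates). Other 501Mel cells received an shRNA against MITF (shMITF, 2 replicates) or a scramble that the labels call shSCR2 (2 replicates). Hermes 3A cells, an untransformed human melanocyte line grown with serum, a phorbol ester, cholera toxin, stem cell factor and endothelin-1, received shSCR, shBRG1 or shMITF, with 3 replicates each. The design asks what each line loses or gains when MITF, the transcription factor of the melanocyte lineage, or BRG1, the ATPase of a chromatin remodelling complex encoded by SMARCA4, is silenced. Each knockdown used 1 shRNA construct and each cell type 1 line, so that line and cell type cannot be told apart, and the sources used here do not state whether shSCR1 and shSCR2 are different vectors. The paper says that experiments with these vectors were done at least in triplicate. It does not say that the sequenced replicates came from separate cultures, so p-values measure the spread between these samples.

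SOX proteins are transcription factors that bind DNA through an HMG box, a domain of the kind first described in SRY. They fall into groups by the sequence of that box. SOX8, SOX9 and SOX10 form group SOXE, which acts in the neural crest, from which melanocytes arise. SOX10 is a defining factor of melanocytes and glia, and SOX9 is best known as the master factor of cartilage and of testis development. SOX5, SOX6 and SOX13 form group SOXD, have no activation domain of their own and act together with other factors, in cartilage with SOX9. SOX4 and SOX11 form group SOXC, which acts in progenitor cells, SOX2 of group SOXB1 is a pluripotency and neural progenitor factor, and SOX18 of group SOXF acts in blood and lymph vessels.

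The likeness of the SOXE genes is shown by a stretch of their coding sequence at the start of the HMG box, read 5′ to 3′ from the GENCODE 29 transcripts on GRCh38. It was chosen around the longest run that SOX9 and SOX10 share, 45 bases, because reads within such a run cannot be assigned to 1 of these genes by sequence. In SOX9 the 60 bases are coding bases 296 to 355, in exon 1 of 3 (chromosome 17 from 72121687 to 72121746, plus strand). In SOX10 they are coding bases 293 to 352, in exon 2 of 4 (chromosome 22 from 37983433 to 37983492, minus strand), and in SOX8 coding bases 287 to 346, in exon 1 of 3 (chromosome 16 from 982209 to 982268, plus strand). Capitals mark the bases that differ from SOX9, 4 in SOX10 and 7 in SOX8.
SOX9: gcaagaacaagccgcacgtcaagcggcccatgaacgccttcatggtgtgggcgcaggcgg
SOX10: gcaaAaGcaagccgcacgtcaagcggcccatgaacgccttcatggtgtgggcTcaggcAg
SOX8: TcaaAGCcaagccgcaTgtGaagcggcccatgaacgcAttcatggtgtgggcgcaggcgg
The longest run shared by SOX8 and SOX9 transcripts was 37 bases. Over the 171 pairs among the 19 genes the longest was 89 bases, between SOX1 and SOX2. The read length and the handling of reads that map to more than 1 place are not given in the sources used here, so low SOX9 counts in cells with abundant SOX10 carry that limit.

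Libraries held 29158502 to 78857900 counted reads. On the log2 scale SMARCA4 fell with shBRG1 by 2.36 in 501Mel cells and by 2.38 in Hermes 3A cells, and MITF fell with shMITF by 1.06 and 0.85. MITF also fell with shBRG1, by 1.55 in 501Mel cells and 0.43 in Hermes 3A cells. The 6 melanocytic markers MITF, PMEL, TYR, TYRP1, DCT and MLANA were all detected in every group. Replicates did not spread alike: the common biological coefficient of variation was between 4.56% and 5.88% in the shSCR1, Hermes 3A shSCR and both shBRG1 groups, 16.5% and 17.3% in the shSCR2 and shMITF groups of 501Mel cells, and 28.6% in the shMITF group of Hermes 3A cells. RNA was taken from whole cultures, so fewer cells of a type and less RNA per cell cannot be told apart.

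In the scramble cells of both lines SOX10 was by far the most abundant of the 10 genes per length. In 501Mel shSCR1 cells SOX10 had 126 ± 5.67 RPKM (counts scaled to exon length and to depth over all samples, SD, n = 3), against 181 ± 11.5 RPKM (SD, n = 3) in Hermes 3A shSCR cells. SOX4 at 8.69 ± 0.425, SOX6 at 8.69 ± 0.820 and SOX13 at 8.58 ± 0.464 RPKM came next in 501Mel shSCR1 cells, and their samples overlapped, so that no order among the 3 can be read. They were followed by SOX8 at 3.41 ± 0.349, SOX5 at 0.851 ± 0.0524 and SOX18 at 0.183 ± 0.0751 RPKM, each apart from its neighbours. SOX9 at 0.00819 ± 0.00740 and SOX2 at 0.00781 ± 0.00796 RPKM were near the limit of detection and overlapped, and SOX11 had no count.

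The order differed in Hermes 3A shSCR cells. SOX4 stood at 15.4 ± 0.728 RPKM (SD, n = 3) and SOX13 between 9.88 and 10.1 RPKM, and SOX6 only at 1.31 ± 0.0539 RPKM. SOX5 at 0.829 ± 0.0932 and SOX8 at 0.727 ± 0.0511 RPKM overlapped, as did SOX18 at 0.386 ± 0.0779 and SOX2 at 0.345 ± 0.0953 RPKM. SOX9 had 0.0838 ± 0.00702 RPKM, below SOX2 in every sample, and SOX11 again had no count.

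**Figure D1:**
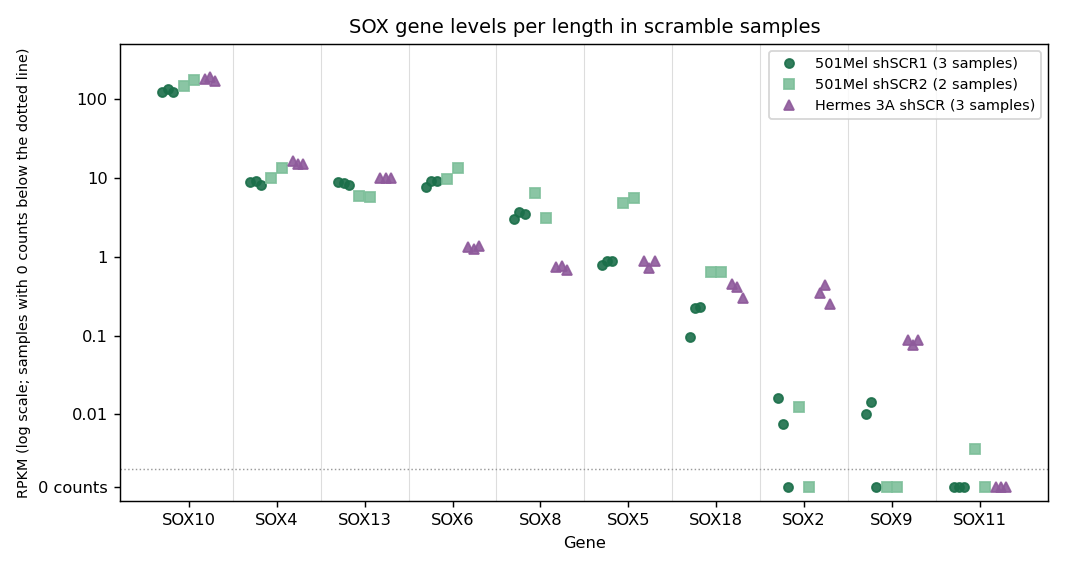
RPKM on a log scale of SOX10 and the 9 other SOX genes in each scramble sample of 501Mel cells (circles for shSCR1, squares for shSCR2) and Hermes 3A cells (triangles), with samples of 0 counts drawn below the dotted line. SOX10 lies above 100 RPKM in every sample, while SOX9 lies below 0.1 RPKM in all of them and at 0 in both shSCR2 samples.

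Between the lines, 5 of the 8 genes tested were called, which means an adjusted p under 0.05 together with a change above 1 on the log2 scale, where 41.4% of the 18731 genes tested were called. SOX6 was 6.79-fold higher in 501Mel shSCR1 than in Hermes 3A shSCR cells (log2 2.76, standard error or SE 0.061, Benjamini-Hochberg adjusted p = 1.31e-22 by the quasi-likelihood test of edgeR). SOX8 was 4.82-fold higher (log2 2.27, SE 0.11, adjusted p = 5.99e-16 by the same edgeR test). SOX9 and SOX2 were lower in 501Mel cells, and both passed the filter on low counts only through their Hermes 3A counts, so that a difference was built into their passing.

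SOX2 had 2, 1 and 0 counts in the shSCR1 samples and 38, 37 and 27 in the Hermes 3A shSCR samples, a ratio of 39.0 with an exact 95% counting interval from 13.0 to 192. SOX9 had 2, 3 and 0 counts against 15, 10 and 15, a ratio of 9.17 with an interval from 3.62 to 29.8. Such intervals cover counting error only. The Hermes 3A samples lay above every 501Mel scramble sample for both genes. SOX4 was 1.72-fold lower in 501Mel cells and SOX13 1.13-fold lower. SOX5 differed by 0.069 on the log2 scale (SE 0.097, adjusted p = 0.52 by the edgeR test). That holds for shSCR1 only. With shSCR2 in its place SOX5 was higher in 501Mel cells by 2.65 (adjusted p = 2.59e-09 by the same edgeR test). SOX18, which also met the filter only through the Hermes 3A samples, was 2.07-fold lower in shSCR1 cells, which did not pass without shSCR1 replicate 1 (adjusted p = 0.0743), and with shSCR2 in place of shSCR1 the log2 difference was 0.75 in the other direction, and with library sizes in place of TMM that of SOX13 was 0.081 and did not pass. Library sizes moved the higher share of called genes from 55.9% to 66% here and shifted all genes by a median of 0.26.

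The 501Mel scramble groups differed from each other for some of these genes, which bears on every value that rests on 1 of them. In CPM (counts scaled to depth over all samples) SOX5 stood at 8.89 ± 0.548 with shSCR1 (SD, n = 3) but at 53.8 ± 4.95 with shSCR2 (SD, n = 2), a 6.08-fold difference (adjusted p = 1.71e-07 by the edgeR test). SOX18 was 3.53-fold higher with shSCR2 (adjusted p = 0.0011), with 9, 22 and 15 counts against 38 and 86. These were the 2 called of the 6 SOX genes tested, against 33.0% of 19056 genes. SOX4 and SOX6 rose less, by 0.43 and 0.42 on the log2 scale, and SOX13 fell by 0.57. Library sizes shifted all genes by a median of -0.14 in this comparison.

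In 501Mel cells BRG1 silencing left the 3 SOXE genes moving in different directions: SOX10 and SOX8 fell and SOX9 rose. SOX6 fell too, SOX13 fell less and SOX4 rose slightly. Of the 6 SOX genes tested, 3 were called (SOX6, SOX8 and SOX9), against 39.1% of the 20514 genes tested, and 5 of the 6 had an adjusted p under 0.05, against 80.3%. SOX9 was tested only through its shBRG1 counts, so that a rise was built into its being counted here. The median log2 fold change of the 6 was -0.51, beside 0.05 over all genes tested. With library sizes in place of TMM the log2 fold changes of all genes shifted by a median of 0.35, and the called genes changed from 4453 higher and 3571 lower to 6192 and 2398, while every called SOX gene kept its direction and its call.

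MITF silencing in 501Mel cells raised SOX4 and lowered SOX6 and, by less, SOX13, and 2 of the 6 SOX genes tested were called, against 8.99% of 17701 genes, and 3 had an adjusted p under 0.05, against 20.5%. With library sizes 72.1% of called genes were higher in place of 62.2%. Of 8 tested in Hermes 3A cells, 3 were called with shBRG1 (SOX4 and SOX9 higher, SOX2 lower), against 9.26% of 17222 genes, and 6 had an adjusted p under 0.05, against 56.9%. There library sizes moved the higher share of called genes from 62.5% to 72.5% and shifted all genes by a median of 0.10. With shMITF 2 of 8 were called (SOX8 higher, SOX2 lower), against 7.39% of 16508 genes, and 3 had an adjusted p under 0.05, against 17.0%. Library sizes moved the higher share there from 45.3% to 56%. In both Hermes 3A comparisons SOX2 was tested only through its shSCR counts, so that a fall was built into its being counted. The Hermes 3A comparisons share their 3 shSCR samples, so their values are given side by side and not as separate evidence.

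**Figure D2:**
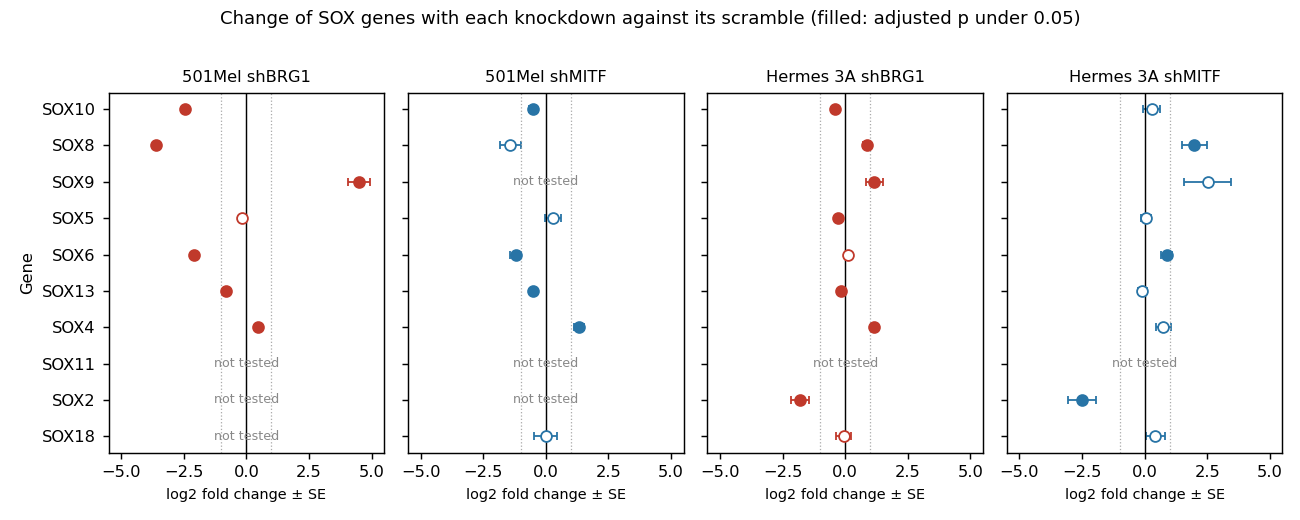
Log2 fold change with its standard error of SOX10 and the 9 other SOX genes in each of the 4 knockdown comparisons, red for shBRG1 and blue for shMITF, filled where the adjusted p was under 0.05, with dotted lines at -1 and 1. In 501Mel shBRG1 cells SOX9 lies at 4.49, opposite to SOX8 at -3.63 and SOX10 at -2.44, and genes too low to be tested are marked as such.

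SOX9 (ENSG00000125398, chromosome 17 from 72121020 to 72126420 on GRCh38, as are all positions given here) was almost absent from 501Mel scramble cells and was detected in every shBRG1 sample. Its counts were 2, 3 and 0 with shSCR1 and 65, 51 and 39 with shBRG1, or 0.0322 ± 0.0291 and 0.892 ± 0.170 CPM (SD, n = 3 each). The groups did not overlap. The log2 fold change was 4.49 (SE 0.43, adjusted p = 1.47e-09 by the edgeR test), and the ratio of the summed counts was 24.8, with an exact 95% counting interval from 10.4 to 77.4. SOX9 passed the filter on low counts only because of the shBRG1 samples, so that a difference was built into its being tested.

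The level SOX9 reached was low. Per length it stood at 0.00634% ± 0.00565 of SOX10 with shSCR1 and at 0.939% ± 0.175 with shBRG1 (SD, n = 3 each), while SOX10 itself fell 5.42-fold. The summed level of 5 fibroblast markers (LUM, DCN, COL1A1, COL3A1 and PDGFRA) moved in the same samples, from between 3.43 and 4.74 CPM to between 15.6 and 18.8 CPM, and 4 of the 5 rose (COL3A1 and PDGFRA were tested only through their shBRG1 counts), with DCN at 0.28 (adjusted p = 0.405 by the edgeR test). The 6 melanocytic markers fell in sum from between 28185 and 30828 to between 2941 and 3241 CPM. Of 5 keratinocyte markers, KRT10 made up most of the sum, which was 26.8 to 29.7 CPM with shSCR1 and 29.3 to 31.7 CPM with shBRG1, where KRT1 was at 0, and neither of the 2 tested passed. The part of these markers in the SOX9 result was not tested.

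With shMITF in 501Mel cells SOX9 was not detectable beyond the scramble. It had 0 counts in both shSCR2 samples, which allows up to 0.0288 CPM, and 0 and 3 counts with shMITF. It was too low to be tested there, and no fold can be given. The difference between the shBRG1 and shMITF effects in 501Mel cells was 0.71 for SOX9 (SE 1.5, adjusted p = 0.735 by the edgeR test), a value that rests on a group without counts.

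SOX9 counts in Hermes 3A cells were 15, 10 and 15 with shSCR, 40, 35 and 32 with shBRG1 and 17, 148 and 9 with shMITF. Every shBRG1 sample lay above every shSCR sample, and 1 shMITF sample lay far above the others while the remaining ones overlapped shSCR. SOX9 rose 2.24-fold with shBRG1 (log2 1.17, SE 0.34, adjusted p = 0.00425 by the edgeR test), a call that was lost with all Hermes 3A groups in 1 fit, which brings in the spread of the shMITF samples (adjusted p = 0.381). With shMITF the log2 fold change of 2.51 (SE 0.94, adjusted p = 0.104) did not pass, and without replicate 2 it was 0.35. DESeq2 gave an adjusted p of 0.0177 for that comparison. The shBRG1 effect on SOX9 was larger in 501Mel than in Hermes 3A cells by 3.29 on the log2 scale (SE 0.64, adjusted p = 2.57e-05 by the edgeR test of the difference).

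SOX8 (ENSG00000005513, chromosome 16 from 981808 to 986979), the third SOXE gene, fell with SOX10 in 501Mel shBRG1 cells and did not fall in Hermes 3A cells. In 501Mel cells it had 669, 865 and 547 counts with shSCR1 and 83, 72 and 63 with shBRG1, or 15.1 ± 1.55 and 1.26 ± 0.0989 CPM (SD, n = 3 each), with no overlap. SOX8 fell 12.3-fold (log2 -3.63, SE 0.11, adjusted p = 4.06e-19 by the edgeR test), beside 5.42-fold for SOX10. Per length SOX8 went from 2.70% ± 0.236 to 1.18% ± 0.0841 of SOX10. With shMITF SOX8 had 438 and 317 counts against 911 and 980 with shSCR2. The shSCR2 libraries differed in depth, and in CPM their samples stood apart, at 13.6 and 28.5. Both shMITF samples lay below them, at 6.15 and 9.72 CPM. The log2 fold change of -1.41 (SE 0.42) missed the threshold with an adjusted p of 0.0644 by the edgeR test, where DESeq2 gave 0.00089. Leaving out 1 replicate gave values from -1.90 to -0.73. The fall was larger with shBRG1 than with shMITF by 2.20 on the log2 scale (SE 0.46, adjusted p = 0.00339 by the edgeR test of the difference). The knockdowns were of unequal strength, and MITF itself fell more with shBRG1 than with shMITF.

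SOX8 rose in Hermes 3A cells with both knockdowns. Its counts were 142, 115 and 129 with shSCR, 253, 311 and 270 with shBRG1 and 182, 261 and 654 with shMITF. Neither knockdown group overlapped shSCR in CPM, and replicate 3 stood highest among the shMITF samples. The rise with shBRG1 was 1.81-fold (log2 0.85, SE 0.13, adjusted p = 1.3e-06), short of the fold needed for a call, and its adjusted p was 0.21 with all Hermes 3A groups in 1 fit. The rise with shMITF was 3.97-fold (log2 1.99, SE 0.51, adjusted p = 0.0309 by the edgeR test). It was 1.11 on the log2 scale without replicate 3 of shMITF, and did not pass when any 1 shSCR replicate was left out (adjusted p between 0.113 and 0.121). The shBRG1 effect on SOX8 differed between the lines by -4.51 on the log2 scale (SE 0.16, adjusted p = 5.96e-24 by the edgeR test), and the shMITF effect by -3.41 (SE 0.81, adjusted p = 0.0518).

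SOX10 (ENSG00000100146, chromosome 22 from 37970686 to 37987422), the counterpart, had 23017, 26111 and 15867 counts with shSCR1 and 5507, 5103 and 4823 with shBRG1 in 501Mel cells. Its Hermes 3A counts were 29246, 24026 and 27309 with shSCR and 23789, 28771 and 21037 with shBRG1, a fall of 0.40 on the log2 scale (SE 0.045, adjusted p = 9.92e-09 by the edgeR test), in which all 3 shBRG1 samples lay below all shSCR samples in CPM. That fall did not pass with all Hermes 3A groups in 1 edgeR fit (adjusted p = 0.393). With shMITF SOX10 fell by 0.52 in 501Mel cells (adjusted p = 0.0451, past the threshold in 6 of 12 alternatives, and -0.33 without shMITF replicate 2) and stood at 0.28 in Hermes 3A cells (adjusted p = 0.618), where its counts of 14744, 40196 and 18788 spread on both sides of shSCR and the value was -0.24 without replicate 2.

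**Figure D3:**
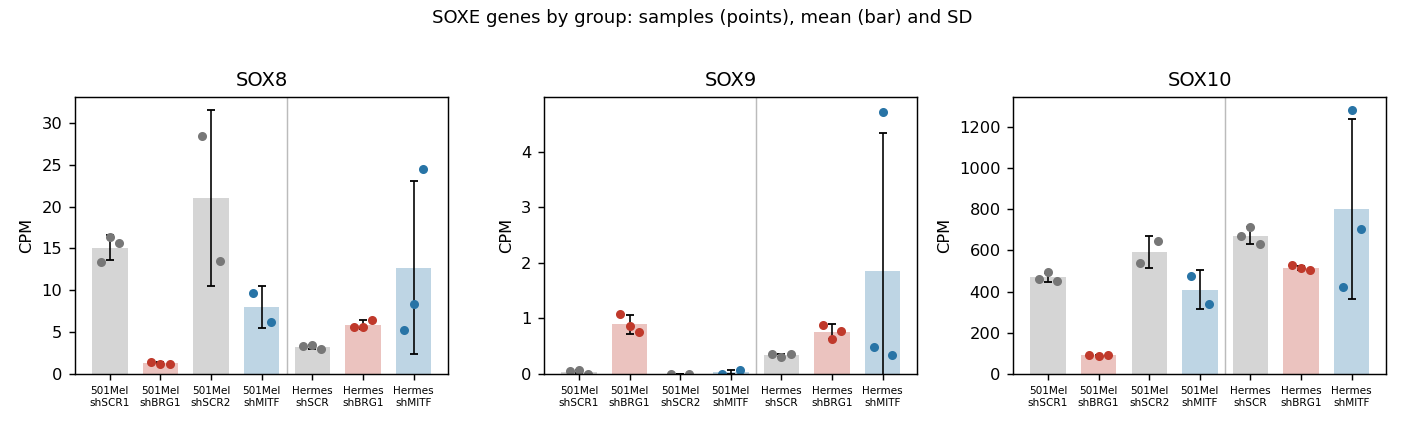
CPM of SOX8, SOX9 and SOX10 in every sample (points) of the 7 groups, with the mean (bars from 0) and SD, all samples scaled together. In 501Mel shBRG1 cells SOX8 and SOX10 are lowest and SOX9 is near 0.892 CPM, and in the Hermes 3A shMITF group 1 sample with 148 SOX9 counts sets the mean.

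Among the SOXD genes, SOX6 was the one that moved most, and only in 501Mel cells did it fall. Its counts were 7606, 9613 and 6232 with shSCR1 and 2682, 2221 and 2271 with shBRG1, or 171 ± 16.1 and 41.6 ± 3.84 CPM (SD, n = 3 for both), a 4.24-fold fall (log2 -2.08, SE 0.068, adjusted p = 8.22e-17 by the edgeR test). With shMITF it had 5373 and 3937 counts against 6131 and 19057 with shSCR2, where the second shSCR2 library was the deepest of all. In CPM these were 119 and 76.4 against 192 and 264, and the groups did not overlap. SOX6 fell 2.31-fold (log2 -1.21, SE 0.21, adjusted p = 0.00867), and against both pooled scramble groups the value was -0.99 with an adjusted p of 0.0765.

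SOX6 in Hermes 3A cells had 1132, 826 and 1155 counts with shSCR and 1360, 1422 and 1162 with shBRG1, overlapping in CPM, with a log2 fold change of 0.092 (SE 0.068, adjusted p = 0.261 by the edgeR test). With shMITF it had 1194, 1999 and 1101 counts, every sample above shSCR in CPM, and rose 1.84-fold (adjusted p = 0.0312), which did not pass when any 1 shSCR replicate or replicate 3 of shMITF was left out. The effects on SOX6 differed between the lines for both knockdowns, by -2.20 on the log2 scale for shBRG1 (SE 0.097, adjusted p = 1.69e-18) and by -2.09 for shMITF (SE 0.35, adjusted p = 0.00846 by the edgeR test). The latter was the only 1 of 8 SOX genes called for a difference of the shMITF effect, against 2.64% of 19284 genes (2.99% by adjusted p alone), and without replicate 2 of shMITF in 501Mel cells it was -1.81 with an adjusted p of 0.0612. For shBRG1, 5 of 8 were called, against 26.9% of 21697 genes, and 7 had an adjusted p under 0.05, against 57.9%, and library sizes moved the higher share of called genes from 44.7% to 61.8% there, with a median shift of 0.27.

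SOX6 (ENSG00000110693, chromosome 11 from 15966449 to 16739591, minus strand) shares 219 exon bases with C11orf58 on the opposite strand, and whether reads were counted by strand is not given in the sources used here. C11orf58 rose by 0.30 on the log2 scale with shBRG1 in 501Mel cells and stood at 0.16 with shMITF (adjusted p = 0.458 by the edgeR test), while SOX6 fell in both. The part of the shared bases in the SOX6 counts was not tested.

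SOX13 (ENSG00000143842, chromosome 1 from 204073115 to 204127743) fell in 501Mel cells and barely moved in Hermes 3A cells. It had 3334, 3411 and 2095 counts with shSCR1 and 2183, 2281 and 1942 with shBRG1, a 1.78-fold fall (log2 -0.83, SE 0.052, adjusted p = 6.25e-13 by the edgeR test) without overlap in CPM. With shMITF the fall was 1.41-fold (adjusted p = 0.0369), from 43.4 and 42.0 CPM to 29.5 and 30.5 CPM, and it passed in 6 of 12 alternatives. SOX13 in Hermes 3A cells stood at 74.0 ± 0.890 CPM with shSCR against 67.2 ± 0.439 CPM after BRG1 silencing (SD, n = 3 each), a fall of 0.15 on the log2 scale (adjusted p = 0.0033) that was -0.050 with library sizes and did not pass. Nor did it pass with all Hermes 3A groups in 1 edgeR fit (adjusted p = 0.537). The shBRG1 effect was lower in 501Mel cells by 0.70 (SE 0.068, adjusted p = 1.73e-11 by the edgeR test).

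SOX5 (ENSG00000134532, chromosome 12 from 23529500 to 24562544) overlapped its scramble in all 4 knockdown comparisons. With shBRG1 in 501Mel cells it had 452, 446 and 482 counts against 413, 486 and 323 with shSCR1. The log2 fold change was -0.19 (SE 0.091, adjusted p = 0.0561 by the edgeR test), and 0.16 with library sizes. The lowest of its 14 alternatives was -1.75. The shBRG1 samples, between 7.48 and 9.18 CPM, lay far below both shSCR2 samples. With shMITF SOX5 had 88.9 and 41.8 CPM, on both sides of the 50.3 and 57.3 CPM of shSCR2. The Hermes 3A values of SOX5 were -0.29 with shBRG1 (adjusted p = 0.0467, past the threshold in 4 of 13 alternatives) and 0.037 with shMITF (adjusted p = 0.922 by the edgeR test).

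SOX4 (ENSG00000124766, chromosome 6 from 21592768 to 21598619), the only SOXC gene among the 9 beside SOX11, had a higher mean in all 4 knockdown groups than in their scramble, in 3 of them without overlap. In 501Mel cells it had 2593, 2792 and 1680 counts with shSCR1 and 4263, 4193 and 3896 with shBRG1, or 50.9 ± 2.49 and 71.7 ± 2.13 CPM (SD, n = 3 each), a 1.36-fold rise (log2 0.44, SE 0.050, adjusted p = 2.34e-08 by the edgeR test) that was 0.30 with an adjusted p of 0.139 against both scramble groups pooled. With shMITF it had 141 and 198 CPM against 58.6 and 78.1 CPM with shSCR2, a 2.52-fold rise (log2 1.33, SE 0.20, adjusted p = 0.00403). In 501Mel cells the rise was larger with shMITF than with shBRG1 by 0.86 on the log2 scale (SE 0.19, adjusted p = 0.00238 by the edgeR test of the difference).

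SOX4 in Hermes 3A cells had 4131, 2921 and 3833 counts with shSCR and 9613, 10589 and 8266 with shBRG1, or 90.2 ± 4.26 and 200.2 ± 12.0 CPM (SD, n = 3 each). It rose 2.20-fold (log2 1.13, SE 0.046, adjusted p = 4.85e-18 by the edgeR test) and passed in all 13 alternatives tried. With shMITF its 84.4, 223 and 138 CPM overlapped shSCR, and the log2 fold change of 0.75 (SE 0.30) had an adjusted p of 0.124. The shBRG1 effect was smaller in 501Mel than in Hermes 3A cells by 0.72 (SE 0.071, adjusted p = 2.34e-11 by the edgeR test).

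SOX11 (ENSG00000176887, chromosome 2 from 5692667 to 5701385) was at the limit of detection. It had 4, 2 and 2 counts in 501Mel shBRG1 cells and 0 in every shSCR1 sample. Against a floor of 3 counts over the shSCR1 group it was 2.13-fold higher. That value takes the shBRG1 counts as exact and is not a lower limit. It had 1 and 0 counts in each of the shSCR2 and shMITF groups and 0 in all 9 Hermes 3A samples, which allows between 0.0210 and 0.0323 CPM by group. It was too low to be tested in any knockdown comparison, and with no filter on low counts its adjusted p with shBRG1 was 0.0316.

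**Figure D4:**
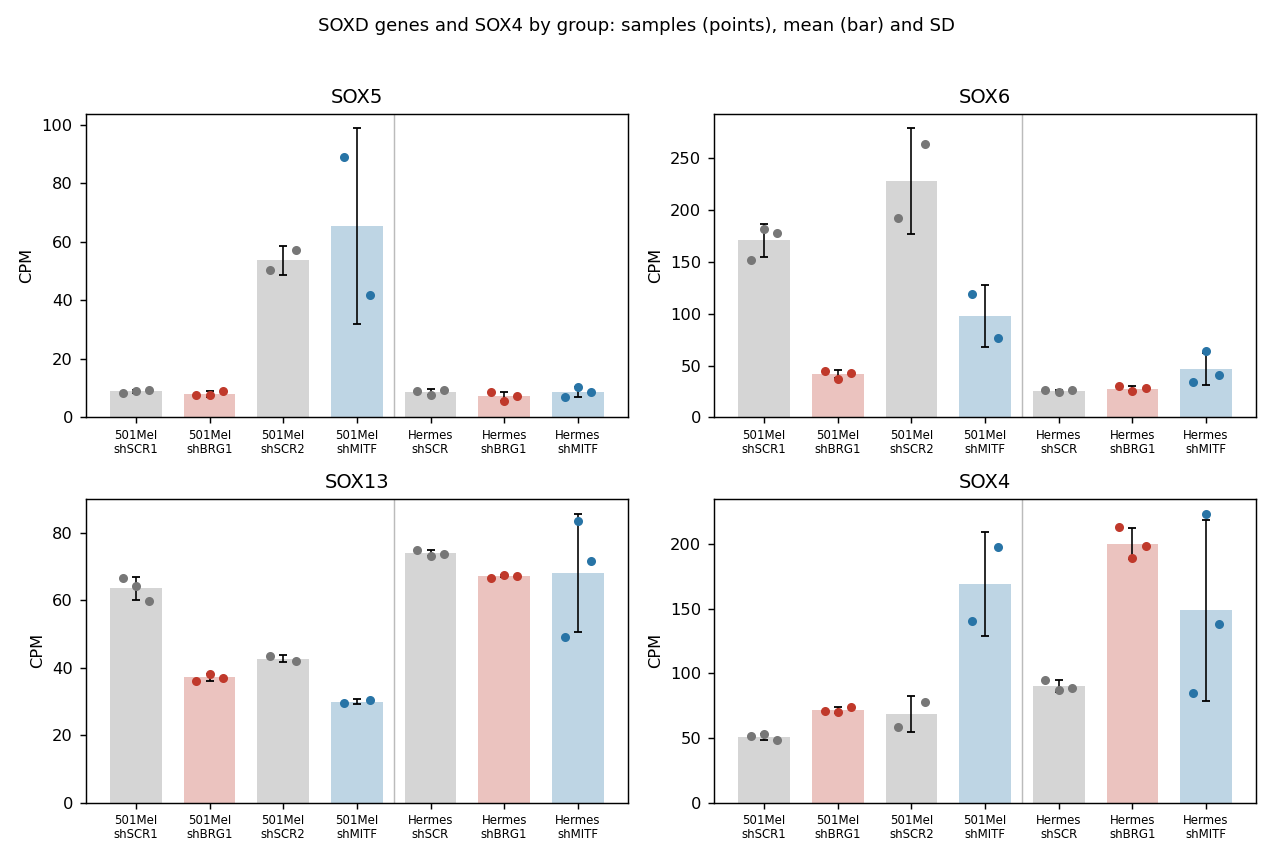
CPM of SOX5, SOX6, SOX13 and SOX4 in every sample (points) of the 7 groups, with the mean (bars from 0) and SD, all samples scaled together. SOX5 stands near 53.8 CPM with shSCR2 and at 8.89 CPM with shSCR1, SOX6 is lower in both 501Mel knockdown groups, and SOX4 is highest with shBRG1 in Hermes 3A cells and with shMITF in 501Mel cells.

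SOX2 (ENSG00000181449, chromosome 3 from 181711924 to 181714436) was detected in all 9 Hermes 3A samples and fell with both knockdowns. Its counts were 38, 37 and 27 with shSCR, 13, 12 and 10 with shBRG1 and 7, 6 and 1 with shMITF, without overlap in CPM. The fall was 3.50-fold with shBRG1 (log2 -1.81, SE 0.36, adjusted p = 9.37e-05 by the edgeR test) and 5.63-fold with shMITF (log2 -2.49, SE 0.56, adjusted p = 0.0193). In both comparisons SOX2 met the filter on low counts only through the shSCR samples, with 2 of 3 shBRG1 samples and 0 of 3 shMITF samples at its cutoff, so that a fall was built into its being tested. The call with shMITF was lost when any 1 shSCR replicate was left out (adjusted p between 0.0609 and 0.0911). In 501Mel cells SOX2 had between 0 and 5 counts in every sample and was too low to be tested, so that the difference of its shBRG1 effect between the lines, 2.90 (SE 1.1, adjusted p = 0.0175), rests on 3 and 9 summed counts there.

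SOX18 (ENSG00000203883, chromosome 20 from 64047582 to 64049641) was low throughout, with 1 to 86 counts. In 501Mel shBRG1 cells it had 1, 6 and 6 counts against 9, 22 and 15 with shSCR1, a ratio of 4.42 with an exact 95% counting interval from 2.35 to 8.93, and no overlap in CPM. It did not pass the filter in that comparison, and with no filter its log2 fold change was -2.20 with an adjusted p of 1.02e-05 by the edgeR test. With shMITF in 501Mel cells it had 75 and 36 counts against 38 and 86 (log2 -0.010, adjusted p = 0.991), and in Hermes 3A cells its groups overlapped, with -0.061 for shBRG1 (adjusted p = 0.876) and 0.42 for shMITF (adjusted p = 0.48). On the log2 scale the shBRG1 effect on SOX18 was lower by 2.13 in 501Mel cells (SE 0.59, adjusted p = 0.00204 by the edgeR test).

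Set against each other, the effects of shBRG1 and shMITF differed for 2 of 7 SOX genes called in 501Mel cells, SOX8 and SOX18, both lower with shBRG1, against 27.3% of 22255 genes, with a higher share among called genes of 43.2%, or 57.4% with library sizes, which shifted all genes by a median of 0.22. The call of SOX18 was lost in 5 of the 10 fits that left out 1 replicate (adjusted p up to 0.0868). The difference for SOX6 was -0.85 (SE 0.25, adjusted p = 0.0187 by the edgeR test), with 0.0538 under library sizes. All differences between these effects in 501Mel cells rest on separate scramble groups and on knockdowns of unequal strength, whose part was not tested. Between the Hermes 3A knockdowns none of 7 SOX genes was called by edgeR or DESeq2, where 5.81% of 16927 genes were called by edgeR, and 1 had an unadjusted p under 0.05 (SOX6 at -0.78, adjusted p = 0.0599).

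Few genes of the rest of the family could be tested in 501Mel cells. SOX12, the third SOXC gene, had 2908, 3238 and 2048 counts with shSCR1 and 4744, 4652 and 4063 with shBRG1, and rose by 0.35 on the log2 scale there and by 0.87 with shBRG1 in Hermes 3A cells. SOX17, a factor of endoderm and vessels, had 267, 258 and 278 counts with Hermes 3A shSCR, 1140, 1458 and 1023 with shBRG1 and 3249, 794 and 454 with shMITF, and rose by 1.90 (adjusted p = 2.38e-17) and 2.77 (adjusted p = 0.0157 by the edgeR test). It had at most 3 counts in any shSCR1 or shBRG1 sample of 501Mel cells. SOX1, SOX3, SOX14 and SOX21 had at most 2 counts in any sample that lists them. Of the 9 genes of the rest of the family 3 could be tested in each 501Mel knockdown comparison and none was called. Over all genes tested there, 39.1% were called with shBRG1 and 8.99% with shMITF. In Hermes 3A cells 2 of 5 were called with shBRG1 (SOX17 and SOX30, the latter tested only through its shBRG1 counts), against 9.26% of all genes tested. With shMITF 1 of 5 was called, against 7.39%. So few genes allow no reading of a difference between the lines.

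Genes that SOX proteins are known to act on were read from fixed lists. Of 12 genes of the pigment cell programme that SOX10 works in, MITF included, all 12 fell with shBRG1 in 501Mel cells and 11 were called, where 39.1% of all genes tested fell by adjusted p, and their median log2 fold change was -2.50. The most abundant were PMEL at -3.15, TYRP1 at -4.04, MLANA at -3.08 and TYR at -4.03, which encode melanosome proteins and pigment enzymes. With shMITF in 501Mel cells 6 of the 12 fell, against 10.5% of all genes, with a median of -0.88, and TYR stood at 0.47 (adjusted p = 0.078). Among Hermes 3A cells 10 fell and ERBB3 rose with shBRG1, against 28.6% of all genes that fell (median -0.84), and 5 fell with shMITF, against 9.15% (median -0.76). MITF, itself on this list, is the gene that shMITF silences, so its own fall in the shMITF comparisons was built into the design. The medians of all genes tested lay between 0.01 and 0.05.

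Of 12 cartilage genes that SOX9 drives together with SOX5 and SOX6, 9 could be tested with shBRG1 in 501Mel cells, where 4 rose and 3 fell, against 41.2% of all genes that rose. COL9A3, a collagen of cartilage, rose by 0.75 there, COL11A1 rose by 1.72 from 9, 5 and 2 counts to 20, 24 and 25, COL11A2 fell by 1.09 and MATN3 fell by 0.32. COL2A1, the main collagen of cartilage, stood at 0.66 (SE 0.38, adjusted p = 0.118 by the edgeR test) with at most 17 counts in a sample. COL11A1 and COL2A1 had no shSCR1 sample at the cutoff of the filter and were tested only through the shBRG1 samples. With shMITF in 501Mel cells COL9A3 rose 3.47-fold and MATN3 2.73-fold, the 2 of 7 that passed, where 10.0% of all genes rose. In Hermes 3A cells 5 of 7 rose with shBRG1, against 28.2% of all genes, of which COL9A3 rose by 0.42, COL11A1 by 0.14 and MATN3 by 0.76. With shMITF 2 of 6 rose there, against 7.85%, COL9A3 by 3.71 and COL11A1 by 0.58. COL9A3 had 245, 162 and 241 counts with shSCR and 679, 1226 and 3994 with shMITF. Its shMITF mean of 69.5 ± 70.2 CPM (SD, n = 3) leans on replicate 3. COL11A1 had between 12184 and 21511 counts in every Hermes 3A sample, where SOX9 had 9 to 148.

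Transcripts at the SOX loci and the TCF and LEF factors, which carry a related HMG box, were also read. SOX2-OT, within which SOX2 lies, had 5, 3 and 1 counts with shSCR1 and 24, 21 and 15 with shBRG1 in 501Mel cells and rose by 2.32 (adjusted p = 4.75e-05 by the edgeR test), and SOX9-AS1, which spans SOX9 on the other strand, had 8, 8 and 1 against 20, 13 and 16 and rose by 1.15 (adjusted p = 0.017). Both met the filter on low counts only through the shBRG1 samples, so that a rise was built into their being tested. Neither shares exon bases with the SOX gene in GENCODE 29, and neither was tested in another knockdown comparison. LEF1, a partner of beta-catenin, rose in 501Mel cells by 1.41 with shBRG1 and by 1.32 with shMITF. TCF7 fell 2.64-fold with shBRG1 in these cells, and TCF7L1 and TCF7L2 rose in both Hermes 3A comparisons, by between 0.54 and 0.87.

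The genes whose 7 group means of log2 CPM, centred on their own mean, lay closest to those of SOX9 were TNFRSF12A, TRIM58, ZNF44, GADD45B and NEGR1, with root mean square differences from 0.36 to 0.61, out of 12533 genes whose mean count reached 100. TNFRSF12A, a receptor of the tumour necrosis factor family, had mean counts of 589.7 with shSCR1 and 9508 with shBRG1 in 501Mel cells, and 3868 with shSCR, 9565 with shBRG1 and 10325 with shMITF in Hermes 3A cells. SOX4 ranked 2838, SOX13 2946 and SOX10 10286 by the same measure. The ranking is a description over 7 groups that share lines and controls, and SOX9 itself was read from 0 to 148 counts.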

How the data were processed

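The authors sequenced ribosome-depleted total RNA after a duplex-specific nuclease step, which lowers the most abundant cDNAs and so compresses differences of such genes. They deposited raw read counts per Ensembl gene, 1 set per replicate. The submitters' processing notes name hg19, CASAVA 1.8, TopHat 1.4.1 and Bowtie 0.12.7. The counting program, its strand setting and the read length are not given in the sources used here.

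Each comparison was fitted on its own groups in edgeR 4.0.16 (R 4.3.3): filterByExpr with the group, TMM, robust glmQLFit and glmQLFTest, with Benjamini-Hochberg adjustment over all genes tested. A gene was called where the adjusted p was under 0.05 and the change exceeded 1 on the log2 scale, as in the study. Standard errors are the log2 fold change over the square root of F. Differences of effects were contrasts in 1 fit of the 4 groups concerned. CPM and RPKM were TMM-scaled over all 19 samples and the 33031 genes listed for each, so they need not match the fitted folds exactly. RPKM used exon lengths from GENCODE 29, and coordinates are GRCh38, not the build of the counts. Counting intervals are exact (Clopper-Pearson, 95%), and the floor is 3 counts over a group.

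Alternatives were library sizes, DESeq2 1.42.0, no filter, at least 10 counts in every sample, each replicate left out, a replicate block, 1 fit of all groups per line, glmTreat, pooled scrambles and shSCR2 for shSCR1. No library was identical to another. The code was tested on simulated data in which only genes with high mean counts were changed. That check does not cover genes with counts as low as SOX2, SOX9, SOX11 and SOX18. Members and lists were chosen with earlier results of these data known. Named genes were the 9 members, SOX10, MITF and SMARCA4, the genes of fixed lists (by counts, with values for the 4 most abundant pigment and cartilage genes) and the 5 genes most like SOX9. C11orf58, and list genes other than those 4 given with values, were named after their values were seen. Python 3.11.15 with matplotlib 3.10.9 drew the plots.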

Additional observations from a re-analysis of the deposited data

Results flagged for a closer look

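The effect of shBRG1 differed between the lines for 7 of the 8 SOX genes tested, by the edgeR test of the difference (501Mel minus Hermes 3A, log2 scale). SOX8 differed by -4.51, SOX6 by -2.20, SOX18 by -2.13, SOX4 by -0.72 and SOX13 by -0.70, and SOX9 by 3.29 and SOX2 by 2.90 in the other direction. SOX8 fell in 501Mel cells and rose in Hermes 3A cells, SOX4 rose in both, and SOX9 rose in both from 5 and 40 summed counts. The value of SOX2 rests on 3 and 9 summed counts in 501Mel cells, and without shBRG1 replicate 1 or 2 there its adjusted p was 0.105 and 0.0638. Over all genes tested 57.9% had an adjusted p under 0.05 for this difference. The effect of shMITF differed for SOX6, by -2.09, with opposite directions in the lines, where 2.99% of all genes passed.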

How the results depend on the processing

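Of 1033 recomputed log2 fold changes of the 9 SOX genes and SOX10, 897 kept their direction and side of the threshold, 76 lost and 32 gained significance and 28 changed sign, and the causes were not tested. The number of SOX genes called became 5 with shBRG1 in 501Mel cells without a filter (3 with it). It became 1 with pooled scrambles and 0 with glmTreat for shMITF in 501Mel cells (2), 1 with glmTreat for shBRG1 in Hermes 3A cells (3), and 1 without a filter, 1 at 10 counts and 0 with glmTreat for shMITF in Hermes 3A cells (2). glmTreat tests against a log2 fold change of 1 and is stricter by construction. At least 10 counts in every sample, which drops the low genes, gave 2 between the lines (5), 1 between the scrambles (2), 2 for the shBRG1 difference between lines (5) and 1 between the knockdowns in 501Mel cells (2). For the shMITF difference between lines (1) library sizes, DESeq2 and 10 counts each gave 2. Leaving out 1 replicate gave 3 to 4 and 1 to 3 for shBRG1 and shMITF in 501Mel cells, 3 in every case for shBRG1 and 0 to 5 for shMITF in Hermes 3A cells (0 without any 1 of the shSCR replicates, 5 without replicate 1 of shMITF), 4 to 5 between the lines, 4 to 5 and 0 to 2 for the differences between lines, and 1 to 3 and 0 to 1 between the knockdowns in 501Mel and Hermes 3A cells. Leaving out 1 of 2 replicates assumes that the lone sample varies like the others. SOX group means at or above 1 CPM numbered 38 of 63, and 39 without TMM.

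Sign changes were mostly of values near 0. With library sizes SOX5 became 0.16 with shBRG1 and SOX18 0.091 with shMITF in 501Mel cells, SOX18 0.043 with shBRG1 and SOX13 0.014 with shMITF in Hermes 3A cells, and SOX13 0.081 between the lines. SOX18 with shMITF in 501Mel cells became 0.011 at 10 counts and 0.78 with pooled scrambles, and 0.75 between the lines with shSCR2. Leaving out 1 replicate gave values on both sides of 0. With shMITF in 501Mel cells they ran from -0.73 to 0.46 for SOX18 and -0.33 to 0.70 for SOX5. For SOX18 they ran from -0.23 to 0.058 with shBRG1 in Hermes 3A cells. With shMITF there they ran from -0.11 to 0.16 for SOX5, -0.28 to 0.084 for SOX13 and -0.24 to 0.58 for SOX10 (-0.24 without shMITF replicate 2). Between the lines they ran from -0.025 to 0.12 for SOX5, and between the scrambles from -0.16 to 0.98 for SOX8. For the differences between lines they ran from -0.12 to 0.23 for SOX5 with shBRG1, and with shMITF from -0.38 to 0.68 for SOX5, -2.49 to 3.19 for SOX9 and -1.16 to 0.058 for SOX18. Between the knockdowns they ran from -0.85 to 0.15 for SOX5 and -0.20 to 4.54 for SOX9 in 501Mel cells, and from -1.82 to 0.83 for SOX9 and -0.25 to 0.13 for SOX13 in Hermes 3A cells.

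Counts over all genes moved from 8024 to 5183 (shBRG1 in 501Mel), 1594 to 1056 (shBRG1 in Hermes 3A), 7747 to 4406 (lines), 6282 to 3558 (scrambles) and 5834 to 3560 (shBRG1 difference) at 10 counts. They moved from 1592 to 2518 in 1 fit, 223 with glmTreat, 575 with pooled scrambles and 956 without shMITF replicate 2 (shMITF in 501Mel), to 602 and from 1220 to 185 with glmTreat in Hermes 3A cells with shBRG1 and shMITF, and from 509 to 908 with DESeq2 (shMITF difference). Left-out replicates gave 590 to 677 for shMITF without any 1 Hermes 3A shSCR replicate, 152 to 803 for the shMITF difference and 363 to 413 in place of 984 between the Hermes 3A knockdowns without any 1 shBRG1 replicate.

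The labels give groups the same replicate numbers. With the replicate block 3, 3, 3 and 2 SOX genes were called in the 4 knockdown comparisons and 0 between the Hermes 3A knockdowns, SOX5 with shBRG1 (-0.20) and SOX8 with shMITF (-1.34) in 501Mel cells and SOX6 between the Hermes 3A knockdowns (-0.73) passed the threshold, and no other call changed. Same-numbered samples correlated at 0.007, 0.021, -0.025 and 0.013 on average over the groups of 3. Over the groups of 2 the value was 0.131. With 2 samples centred on their group mean all correlations have the same size, so that value cannot decide whether those samples were paired. The numbers were not taken as pairs in any main fit.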
